A study of Mus musculus with 18 samples.

Results

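The protease inhibitor families studied here are the serpins, the tissue inhibitors of metalloproteinases (Timp genes), the cystatins (Cst genes), the whey acidic protein four-disulphide core genes (Wfdc), the Kazal-type (Spink) and Kunitz-type (Spint) inhibitors and alpha-2-macroglobulin (A2m). Members were chosen by name, as every probe set of the array that the platform annotation pairs with exactly 1 such gene symbol. The naming rule uses no measured value, but it was written with earlier results of these data known. This gave 74 probe sets for 54 genes, of 22626 probe sets tested and 12393 genes named on the array. Each gene is represented by its probe set with the highest mean over all 18 arrays unless another is named, and 13 members had several. A further 4 probe sets named several genes of these families at once and were left out. Serpine2, Cst8, Wfdc10, Wfdc15a, Spink2 and Spink3 were on the list of genes to report and are not analysed here.

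RNA came from the whole testis of male hpg (hypogonadal) mice aged 10 weeks. All animals, controls included, were hpg: they lack gonadotrophin-releasing hormone and therefore make almost no follicle-stimulating hormone (FSH) or luteinising hormone, and spermatogenesis does not run to completion. Untreated hpg mice formed the control group of 7, and the others were given recombinant FSH under the skin, 8 IU in 0.2 ml at intervals of 12 h, for 12 h (4 mice), 24 h (3 mice) or 72 h (4 mice), with the testes taken 1 h after the final dose. Each mouse gave 1 Affymetrix MOE430A array. The question addressed is which testicular transcripts change, and when, after FSH is given to an animal that has had almost none.

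Serpins trap a target protease, most often a serine protease, in a covalent complex, although some have become carriers or chaperones with no inhibitory role. Timp proteins block matrix metalloproteinases and related ADAM enzymes, cystatins block papain-like cysteine proteases such as the cathepsins, and Kazal, Kunitz and many Wfdc proteins block serine proteases through small disulphide-bonded domains. In the testis such inhibitors are made by Sertoli cells, which carry the FSH receptor, and by peritubular, interstitial and germ cells, and they limit proteolysis where tubules are remodelled and germ cells move through Sertoli cell junctions. In RNA from a whole testis, fewer cells of a type and less RNA per cell cannot be told apart.

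The arrays fell into 2 sets. Bacterial Dap spike-in probe sets read 7.95 to 8.97 (log2) on the 12 arrays of 12 h, 72 h and control replicates 4 to 7, and 2.77 to 3.19 on the 6 arrays of 24 h and control replicates 1 to 3, on which the 18S ribosomal probe set signal was 9.07 to 11.7 rather than 3.35 to 3.70. The mice at 12 h and 72 h were therefore compared with controls 4 to 7, and those at 24 h with controls 1 to 3. The 12 h and 72 h comparisons share their controls. Control replicate 6 stood apart, with the spermatid transcripts Prm1 at 12.0, Tnp1 at 11.7 and Acrv1 at 7.68, against at most 3.85, 4.49 and 3.62 on the other 17 arrays. Among the members Serpina3a read 5.64 on that array and at most 3.83 elsewhere, and results that depend on this array are marked below.

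Most of the inhibitor genes were not detectably expressed. A gene was counted at the floor of the array where its mean was below 3.5 in each of the 5 groups of arrays, a level just above what the Dap probe sets read where no spike was added. At this floor lay 32 of the 54 members (59.3%), against 4046 of all 12393 genes (32.6%). Placing the floor at 3 or 4 gave 50% or 61.1% of members. The floor held 6 of 7 Wfdc genes, 10 of 14 clade B serpins, 5 of 8 clade A serpins, 4 of 8 other serpins, 4 of 8 cystatins, 1 of 2 Spink genes, 1 of 4 Timp genes and A2m, and neither Spint gene. A2m, the broad plasma protease trap, averaged 2.68, Wfdc2 2.45 and Spink1, the pancreatic trypsin inhibitor, 2.42.

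The 22 members above the floor included at least 1 gene from every family other than A2m. Averaged over the 18 arrays, the cystatins Cst12, Cst3 and Cstb read 12.4, 11.7 and 9.09, and the Timp genes Timp2, Timp3 and Timp1 read 10.9, 8.97 and 4.01. Among serpins, Serpinb6a averaged 9.80, Serping1 9.27, Serpinh1 8.91, Serpina5 8.72, Serpinf1 8.52 and Serpinb1a 7.00. Spint2 averaged 9.12 and Wfdc1, alone of the 7 Wfdc-named genes above the floor, 9.07. Because probe sets differ in how strongly they bind their target, these values do not rank the genes against each other.

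**Figure D1:**
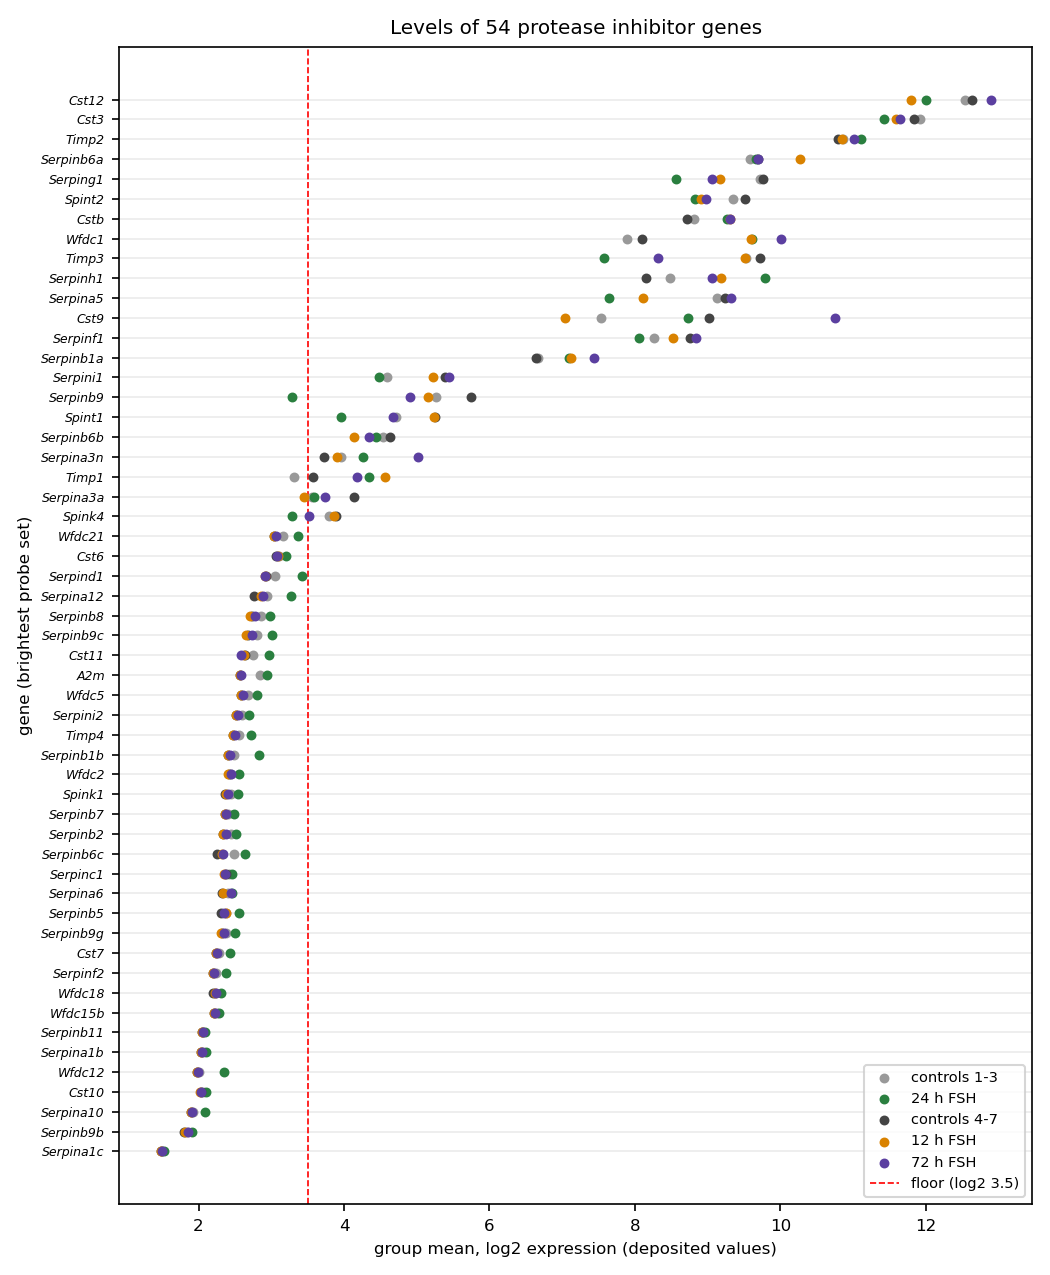
Group means of the 54 member genes on the deposited log2 scale (horizontal axis), 1 row per gene, with 1 point for each of the 5 groups of arrays and a dashed line at the floor of 3.5. The 32 genes at the floor fill the lower rows, and the spread between groups is widest for Cst9, Timp3 and Serpinb9 among the others.

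FSH moved a minority of the inhibitors, in both directions at every time. With limma and Benjamini-Hochberg adjustment over all 22626 probe sets, 6 of 54 members were called at 12 h (adjusted p below 0.05), 3 higher and 3 lower, which is 11.1% beside 6.28% of all genes (3.52% higher, 2.76% lower). At 24 h 12 were called, 6 in each direction, or 22.2% beside 14.8% of all genes (6.38% higher, 8.45% lower). At 72 h 5 were called, 3 higher and 2 lower, or 9.26% beside 7.26% (4.23% higher, 3.03% lower), a share near that of all genes. Counting a member by any of its probe sets gave 7, 15 and 7 genes, beside 7.29%, 18.6% and 8.42% of all genes, the additions being Cstb at each time, Timp2 at 24 h and 72 h and Timp4 at 24 h. The median log2 difference of the 54 members was 0.00 at 12 h, 0.10 at 24 h and 0.03 at 72 h, beside 0.00, 0.04 and 0.01 over all genes. The counts at 12 h and 72 h came to 5 and 4 without control replicate 6.

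Across the 3 times 14 members were called at least once, 10 of them above the floor. Wfdc1 and Serpinh1 rose and Spint2 fell at all 3 times. Cst12 and Serpina5 fell at 12 h and 24 h, and Timp3 fell at 24 h and 72 h. Serpinb6a rose at 12 h and Serpinb1a at 72 h, and Serping1 and Serpinb9 fell at 24 h. The other 4, all at 24 h, were floor-level genes. The 24 h count was the least stable of the 3. It was 6 without control replicate 1 and 2 (Wfdc1 and Timp3) when the 6 arrays of that set were fitted alone, and it was 20 (13 higher, 7 lower) when 24 h mice and controls 1 to 3 were blocked by replicate number, which added 8 members and removed none. The 72 h count was 3 without any 1 of 72 h replicates 1, 2 and 3 or of control replicates 4 and 7.

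**Figure D2:**
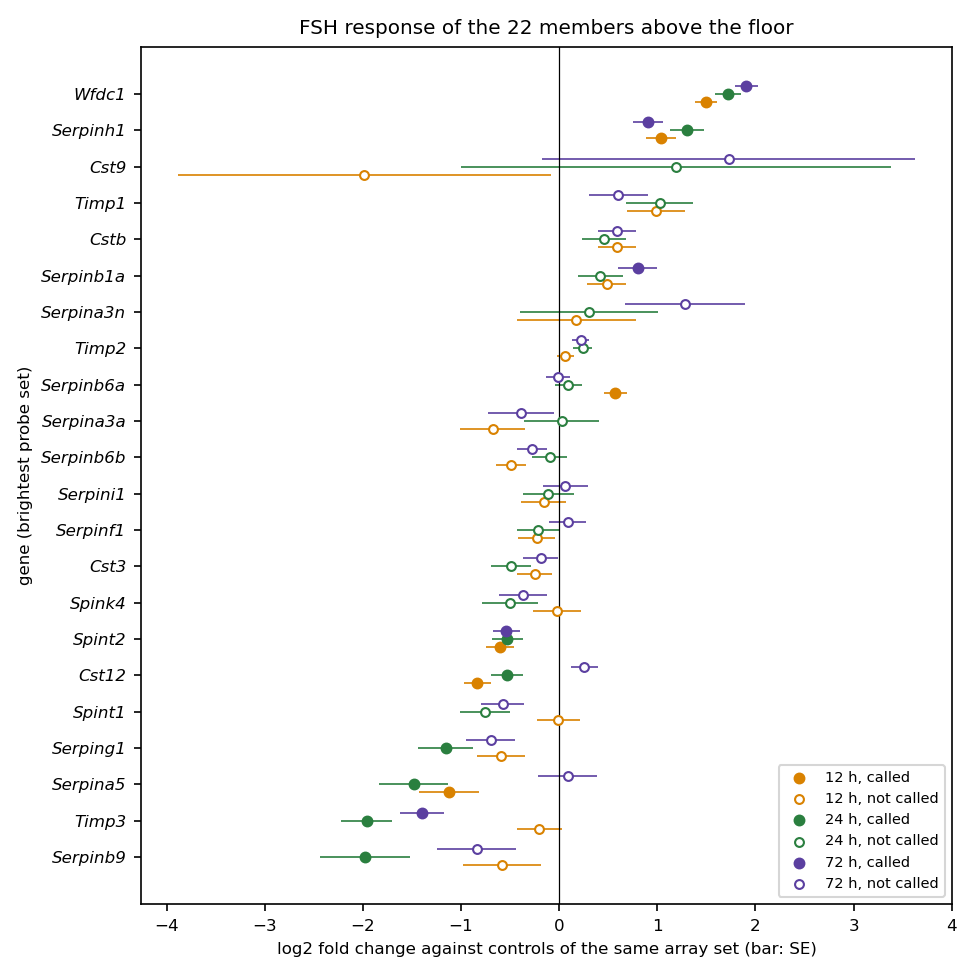
Log2 fold change of the 22 members above the floor (horizontal axis) at 12 h, 24 h and 72 h against the controls of the same array set, with bars of 1 SE, ordered by the value at 24 h. Filled points passed the limma call at an adjusted p of 0.05; Wfdc1 and Serpinh1 lie to the right at all 3 times, Spint2 to the left, and Timp3 moves left between 12 h and 24 h.

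**Figure D3:**
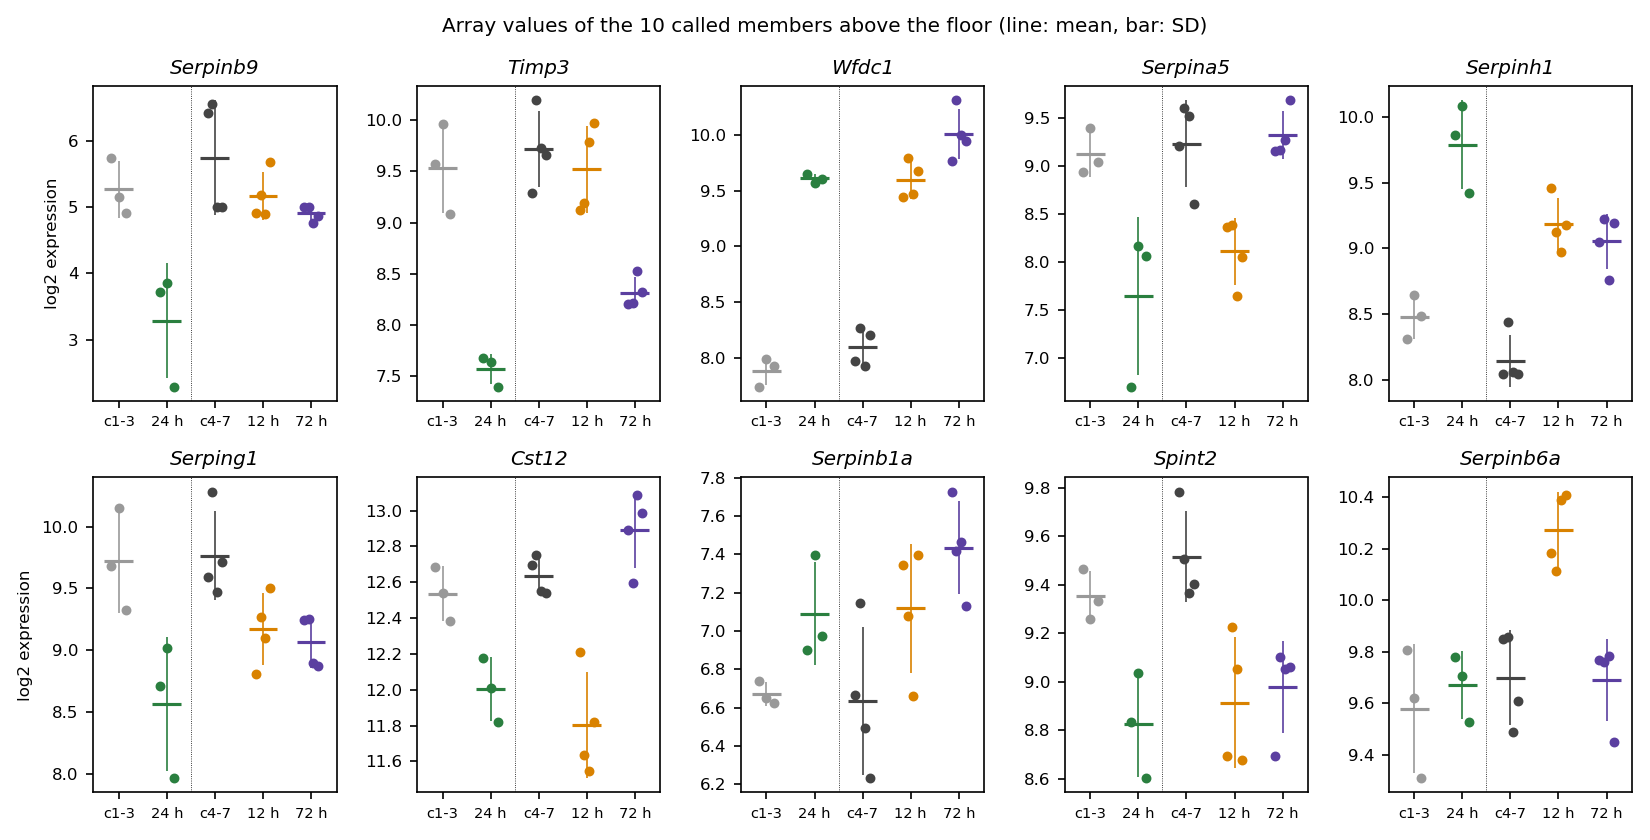
Log2 expression on every array (vertical axis) for the 10 called members above the floor, with the group mean as a line and the SD as a bar; c1-3 and c4-7 are the control replicates of the 2 array sets, divided by a dotted line. In Wfdc1, Serpinh1 and Spint2 no treated array reaches its controls, while in Cst12 and Serpina5 only the 72 h arrays lie among or above them.

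Wfdc1, a secreted WAP-domain protein first known as a growth inhibitor made by stroma, was higher in every treated mouse at all 3 times. Controls 4 to 7 read 7.97, 8.27, 7.93 and 8.21, the 12 h mice 9.44, 9.79, 9.47 and 9.67 and the 72 h mice 9.77, 10.31, 10.00 and 9.94. In the other array set, controls 1 to 3 read 7.75, 7.99 and 7.93 and the 24 h mice 9.65, 9.57 and 9.61. No treated array overlapped the controls, and the lowest of them, 9.44, was above the highest control, 8.27. The rise was 1.50 ± 0.11 at 12 h (log2 ± SE; 2.82-fold, adjusted p = 1.93e-06), 1.72 ± 0.13 at 24 h (3.30-fold, adjusted p = 2.51e-06) and 1.91 ± 0.11 at 72 h (3.76-fold, adjusted p = 3.79e-07). These 3 calls held under each alternative tried. The direct difference between 72 h and 12 h, 0.41 ± 0.11, did not pass the test (adjusted p = 0.0811). The other 6 Wfdc genes stayed at the floor; Wfdc2, an abundant gene of the epididymis, differed by -0.02 and 0.02 from its controls at 12 h and 72 h.

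Serpinh1 encodes HSP47, a serpin without inhibitory function that folds procollagen in the endoplasmic reticulum. Controls 4 to 7 read 8.05, 8.45, 8.06 and 8.05, against 9.46, 9.13, 8.97 and 9.18 at 12 h and 9.05, 9.22, 8.76 and 9.19 at 72 h. Controls 1 to 3 read 8.32, 8.65 and 8.49 and the 24 h mice 9.86, 10.08 and 9.42. No treated array overlapped its controls. The transcript rose by 1.03 ± 0.15 at 12 h (2.05-fold, adjusted p = 0.000762), 1.30 ± 0.18 at 24 h (2.47-fold, adjusted p = 0.000293) and 0.91 ± 0.15 at 72 h (1.87-fold, adjusted p = 0.00222). A second probe set rose by 1.05, 1.13 and 0.83, and was called at each time. The brighter of the pair is of the x_at type, whose probes can also bind related transcripts.

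Serpina5, the protein C inhibitor, also needed for normal sperm development, fell early and was back among its controls at 72 h. Controls 4 to 7 read 9.21, 9.61, 9.52 and 8.61, the 12 h mice 8.37, 8.39, 7.65 and 8.05 and the 72 h mice 9.16, 9.17, 9.28 and 9.69. The 24 h mice read 6.70, 8.17 and 8.07, against 8.94, 9.40 and 9.04 in controls 1 to 3. All 12 h and 24 h arrays lay below their controls, whereas the 72 h arrays overlapped them. The gene fell by 1.12 ± 0.30 at 12 h (adjusted p = 0.0457) and by 1.48 ± 0.35 at 24 h (adjusted p = 0.0131), and differed by 0.09 ± 0.30 at 72 h (adjusted p = 0.942). The 12 h call was lost without any 1 of the 12 h arrays or of control replicates 4, 5 and 6, with adjusted p from 0.0574 to 0.141, and with quantile normalization (0.0543). The direct difference of 1.21 ± 0.30 between 72 h and 12 h did not pass (adjusted p = 0.0528).

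Of the clade B serpins, most of which act inside cells, 4 of 14 were above the floor. Serpinb6a, an inhibitor of cathepsin G and related enzymes, read 10.18, 10.11, 10.39 and 10.41 at 12 h, all above the 9.85, 9.86, 9.49 and 9.61 of controls 4 to 7. At 72 h it read 9.77, 9.76, 9.78 and 9.45, within the range of the controls apart from the lowest array. It rose by 0.57 ± 0.12 at 12 h (adjusted p = 0.0102) and its 72 h level was 0.58 ± 0.12 below its 12 h level (adjusted p = 0.0188). Leaving out 12 h replicate 3 (adjusted p = 0.0700) or 4 (0.0672) or 72 h replicate 4 (0.0590) ended that second call. At 24 h the difference from controls 1 to 3 was 0.09 ± 0.14.

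Serpinb1a, an inhibitor of neutrophil elastase, read 7.73, 7.42, 7.47 and 7.13 at 72 h against 6.67, 7.15, 6.49 and 6.23 in controls 4 to 7, with 1 array of each group inside the other's range. It rose by 0.80 ± 0.20 (adjusted p = 0.0264), and this call was lost without any 1 of 72 h replicates 1 to 3 or control replicates 4, 6 and 7, with adjusted p from 0.0576 to 0.0842. At 12 h and 24 h it was 0.48 ± 0.20 and 0.42 ± 0.23 above controls, not called. Its second, dimmer probe set differed by 0.05 at 72 h and was not called.

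Serpinb9, which inhibits granzyme B and protects cells from cytotoxic lymphocytes, read 3.71, 3.86 and 2.29 at 24 h, all below the 5.74, 5.15 and 4.90 of controls 1 to 3. The lowest of these values lies at the floor, so the measured fall of 1.98 ± 0.46 (adjusted p = 0.0118) may understate the change. The call was lost without control replicate 1 (adjusted p = 0.0588). At 12 h and 72 h the gene read 0.58 ± 0.40 and 0.84 ± 0.40 below controls, not called. Serpinb6b, the fourth of the group, was 0.49 ± 0.15 lower at 12 h (adjusted p = 0.0861). The probe sets of clade B genes may bind RNA of near-identical neighbours, since Serpinb1, Serpinb6 and Serpinb9 genes lie together on chromosome 13 as groups of paralogs.

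Serping1, the C1 inhibitor of the complement and kinin cascades, read 8.71, 9.02 and 7.96 at 24 h against 9.68, 10.15 and 9.32 in controls 1 to 3. It fell by 1.16 ± 0.28 (2.23-fold, adjusted p = 0.0158), which passed neither without 24 h replicate 3 (adjusted p = 0.0562) nor without control replicate 2 (0.0616). The values at 12 h and 72 h were 0.60 ± 0.25 and 0.70 ± 0.25 below controls without passing the test (adjusted p = 0.233 and 0.126). On their brightest probe sets Serpinf1, the anti-angiogenic factor PEDF, differed by at most 0.23 from its controls, and Serpini1, neuroserpin, by at most 0.16. Neither was called. The dimmer Serpini1 set was 0.56 and 0.51 below controls at 12 h and 24 h, and the dimmer Serpinf1 set 0.38 below at 12 h, not called. Serpina3n, an acute-phase serpin, ranged from 3.62 to 6.41 across the 72 h mice and from 3.21 to 4.44 in controls 4 to 7, overlapping, with a difference of 1.28 ± 0.61 (adjusted p = 0.313).

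Spint2 encodes the Kunitz inhibitor HAI-2 of matriptase and other cell surface serine proteases. It read 8.70, 9.23, 9.05 and 8.68 at 12 h and 8.70, 9.10, 9.05 and 9.06 at 72 h, against 9.78, 9.51, 9.37 and 9.40 in controls 4 to 7. The 24 h mice read 8.84, 9.04 and 8.60, against 9.47, 9.26 and 9.33. Treated and control arrays did not overlap at any time. The fall was 0.60 ± 0.14 at 12 h (adjusted p = 0.0204), 0.53 ± 0.16 at 24 h (0.0450) and 0.54 ± 0.14 at 72 h (0.0346).

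Each of the Spint2 calls rested on few arrays. At 12 h it was lost without 12 h replicate 1 (adjusted p = 0.0623), 12 h replicate 4 (0.0729) or control replicate 4 (0.0667). At 24 h it was lost without 24 h replicate 1 or 3 or without control replicate 1, 2 or 3, with adjusted p from 0.0640 to 0.152, and with quantile normalization (0.0871) or the replicate block over all groups (0.0821). At 72 h it was lost without any 1 of the 72 h arrays or of control replicates 4, 5 and 7, with adjusted p from 0.0522 to 0.110. A second Spint2 probe set fell by 0.86 ± 0.20 at 12 h (adjusted p = 0.0192) and was 0.33 and 0.34 below controls at 24 h and 72 h, not called. Spint1 encodes the related inhibitor HAI-1. It was 0.76 ± 0.25 below controls at 24 h (adjusted p = 0.0613; 0.0208 with the replicate block) and 0.58 ± 0.22 below at 72 h (adjusted p = 0.165), and differed by 0.01 at 12 h.

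The Timp genes moved in different directions. Timp3 is bound to the extracellular matrix and blocks ADAM17 and ADAMTS enzymes as well as matrix metalloproteinases. It read 9.13, 9.19, 9.78 and 9.97 at 12 h, overlapping the 9.29, 10.19, 9.73 and 9.66 of controls 4 to 7, and 8.20, 8.21, 8.53 and 8.32 at 72 h, below all of them. At 24 h it read 7.68, 7.64 and 7.40 against 9.57, 9.96 and 9.08 in controls 1 to 3. It fell by 1.96 ± 0.26 at 24 h (3.90-fold, adjusted p = 0.000257) and by 1.40 ± 0.23 at 72 h (2.64-fold, adjusted p = 0.00165), and differed by -0.20 ± 0.23 at 12 h (adjusted p = 0.909).

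The time course of Timp3 was itself tested. The 72 h mice read 1.20 ± 0.23 below the 12 h mice (adjusted p = 0.0110), a call that 2.86% of all genes and 3 of the 54 members passed. The response at 24 h was 1.76 ± 0.35 lower than the response at 12 h (adjusted p = 0.0269). This difference of differences across array sets was passed by 0.928% of genes and, on brightest probe sets, by no other member. This last call was lost without any 1 of 12 h replicates 3 and 4 and control replicates 1, 2, 6 and 7, with adjusted p from 0.0562 to 0.0666, and with quantile normalization (0.0517). Between 24 h and 72 h the Timp3 responses differed by 0.56 ± 0.35 (adjusted p = 0.552). On brightest probe sets 0 of 54 members and 0.339% of genes were called there, and 6 members had an unadjusted p below 0.05. Dimmer probe sets of Timp4 (0.59, adjusted p = 0.0106) and Timp2 (0.84, adjusted p = 0.0493) were called between 24 h and 12 h. That Timp4 set, at the floor, was also called between 72 h and 24 h (-0.57, adjusted p = 0.0193). The 3 dimmer Timp3 probe sets differed by between 0.04 and 0.08 from controls at 12 h and lay 0.48 to 1.43 below at 24 h and 0.22 to 0.84 below at 72 h. Of these, 2 were called at 24 h and 1 at 72 h.

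Timp2, which takes part in activating pro-MMP2 as well as inhibiting it, gave a different answer by probe set. The brightest set, with controls 4 to 7 at 10.89, 10.78, 10.84 and 10.64, differed by 0.06 at 12 h, 0.24 at 24 h and 0.22 at 72 h, none called (24 h adjusted p = 0.115; 0.0263 with the replicate block). The next set, with controls 4 to 7 at 8.68, 8.74, 9.26 and 8.63, read 9.57, 9.87, 10.14 and 10.15 at 72 h and 10.20, 10.44 and 10.13 at 24 h, where controls 1 to 3 read 8.86, 9.04 and 9.04. On this set no array at 24 h or 72 h overlapped its controls.

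That second Timp2 set rose by 1.27 ± 0.17 at 24 h (2.42-fold, adjusted p = 0.000219) and 1.11 ± 0.14 at 72 h (2.16-fold, adjusted p = 0.000283). At 12 h it was 0.41 ± 0.14 above controls (adjusted p = 0.137), and the 72 h mice exceeded the 12 h mice by 0.70 ± 0.14 (adjusted p = 0.0184). A set averaging 7.61 rose by 0.78 at 24 h (adjusted p = 0.00235) and 0.48 at 72 h (0.0295), and a set averaging 9.20 rose by 0.38 at 72 h (0.0490). The set averaging 5.37 read 7.53, 7.04 and 6.39 at 24 h against 6.52, 5.59 and 5.85 and was not called (adjusted p = 0.233). The last of the 6 sets averaged 2.52, at the floor, and differed by -0.07 at 24 h and 0.04 at 72 h, not called. The 72 h difference of the 5 sets above the floor ranged from 0.22 to 1.11, all higher than controls.

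Timp1, the inducible secreted inhibitor, read 5.19, 4.45, 4.66 and 3.96 at 12 h, all above the 3.62, 3.81, 3.52 and 3.35 of controls 4 to 7. It also read higher without overlap at 24 h, with 3.98, 3.77 and 5.27 against 3.15, 3.59 and 3.20. The differences of 0.99 ± 0.30 (adjusted p = 0.0713) and 1.03 ± 0.34 (adjusted p = 0.0607; 0.0438 with the replicate block) just missed the threshold over all probe sets, and 72 h gave 0.60 ± 0.30 (adjusted p = 0.335). Controls 4 to 7 averaged 3.57 and controls 1 to 3 averaged 3.31, close to the floor of 3.5. Testing only probe sets with a mean of at least 3.5 gave adjusted p values of 0.0342 and 0.0372 at 12 h and 24 h. That mean, 4.01 for Timp1, includes the treated arrays, which helped it pass the filter, so these values add no support. Timp4 averaged 2.54 and was at the floor, although its dimmer probe set read 2.54, 2.96 and 2.67 at 24 h against 2.12, 2.15 and 2.14 and was called (0.58 ± 0.07, adjusted p = 0.000129).

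**Figure D4:**
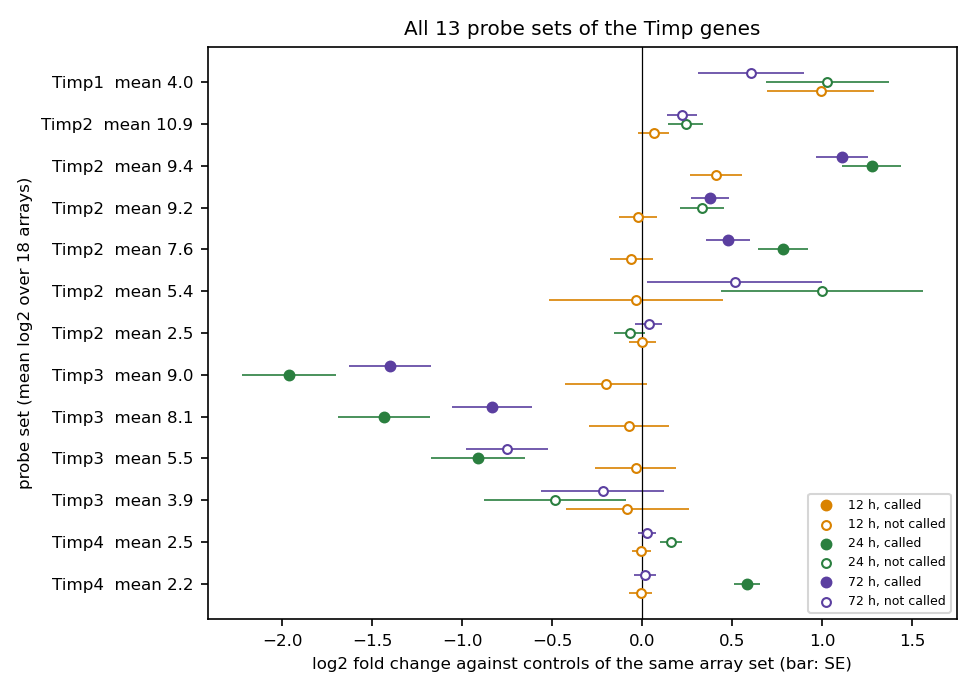
Log2 fold change (horizontal axis, bars of 1 SE) of all 13 probe sets of the Timp genes at the 3 times, each row giving the gene and the mean log2 value of the probe set over 18 arrays. Filled points passed the limma call; the 4 Timp3 sets lie left of 0 at 24 h and 72 h, and the 5 Timp2 sets above the floor lie right of 0 at those times by differing amounts, while the sixth, averaging 2.52, lies near 0.

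Among the cystatins, Cst12 lies with Cst3 and Cst9 in a cluster of cystatin genes on chromosome 2. It read 12.21, 11.63, 11.55 and 11.82 at 12 h, all below the 12.70, 12.75, 12.55 and 12.54 of controls 4 to 7, and 12.89, 12.59, 13.09 and 12.99 at 72 h, overlapping them. At 24 h it read 12.18, 12.01 and 11.82, below the 12.69, 12.54 and 12.38 of controls 1 to 3. It fell by 0.83 ± 0.14 at 12 h (1.78-fold, adjusted p = 0.00207) and by 0.53 ± 0.16 at 24 h (adjusted p = 0.0417), and was 0.26 ± 0.14 above controls at 72 h (adjusted p = 0.416). Cst12 was 1.09 ± 0.14 higher at 72 h than at 12 h (2.13-fold, adjusted p = 0.000775). Leaving out 24 h replicate 2 or 3 or control replicate 1 or 2 ended the 24 h call, with adjusted p from 0.0822 to 0.154, as did fitting that array set alone (0.123), quantile normalization (0.0549) and the replicate block over all groups (0.0658).

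Cst9, or testatin, a cystatin gene switched on in the embryonic testis as its cords form, varied more between mice than any other member. Within controls 4 to 7 it read 6.45, 11.45, 11.49 and 6.70 and within controls 1 to 3 10.32, 5.71 and 6.58. The 12 h mice read 9.73, 10.40, 4.29 and 3.74, the 24 h mice 10.16, 4.89 and 11.12 and the 72 h mice 11.58, 11.62, 8.36 and 11.46. Arrays below 7 and above 9 occurred together in every group other than 72 h, where the lowest read 8.36. The differences of -1.98 ± 1.90, 1.19 ± 2.20 and 1.73 ± 1.90 at the 3 times did not pass the test (adjusted p = 0.821, 0.737 and 0.850).

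Cst3, the secreted cystatin C that inhibits lysosomal cathepsins outside the cell, read between 11.26 and 12.26 on all 18 arrays. It was 0.25 ± 0.18, 0.49 ± 0.21 and 0.19 ± 0.18 below controls at the 3 times and was not called (adjusted p = 0.638, 0.123 and 0.786). Cstb, the cytosolic inhibitor stefin B, differed by 0.59 ± 0.19 at 12 h, 0.46 ± 0.22 at 24 h and 0.59 ± 0.19 at 72 h on its brightest probe set, none called (adjusted p = 0.102, 0.175 and 0.0943). Its dimmer set read 8.55, 8.16, 8.04 and 8.09 at 12 h and 8.34, 8.33, 8.18 and 8.11 at 72 h, above the 7.89, 7.70, 7.54 and 7.81 of controls 4 to 7 on every array. At 24 h that set read 8.15, 8.44 and 7.94, again above all of 7.62, 7.66 and 7.33. It rose by 0.48 ± 0.13, 0.64 ± 0.15 and 0.51 ± 0.13 (adjusted p = 0.0467, 0.0116 and 0.0310).

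**Figure D5:**
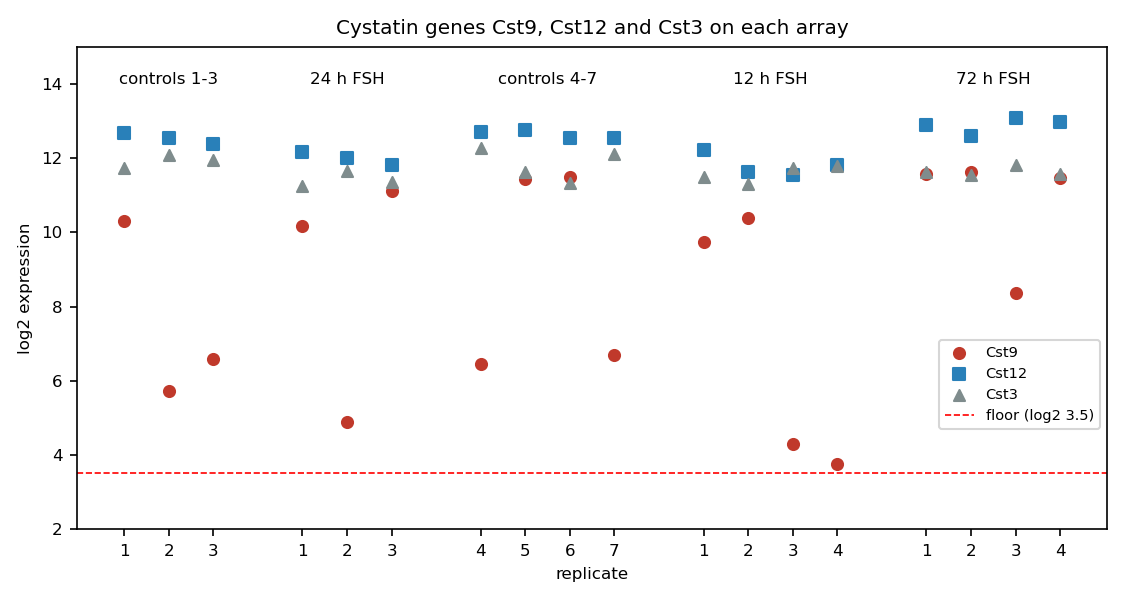
Log2 expression of Cst9, Cst12 and Cst3 on each of the 18 arrays (horizontal axis, replicate number within each group), with the floor of 3.5 as a dashed line. Cst9 spans 3.74 to 11.6 with arrays above 9 and below 7 in each group but 72 h, where the lowest reads 8.36, while Cst12 stays between 11.5 and 13.1 and Cst3 between 11.3 and 12.3.

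The remaining calls at 24 h concerned genes at the floor. Cst7 (0.15 ± 0.04), Serpina10 (0.17 ± 0.05), Serpina12 (0.33 ± 0.06) and Serpind1 (0.38 ± 0.11) were called higher (adjusted p = 0.0206, 0.0282, 0.00253 and 0.0392), with group means of 3.42 or less. All 32 floor-level members read higher at 24 h than controls 1 to 3, by a median of 0.12, and 87.9% of the 4046 floor-level genes of the whole array did so as well, by a median of 0.07. At 12 h 12 of the 32 read higher, with a median of 0.00. At 72 h 29 of the 32 read higher, with a median of 0.02, as did 81.2% of the floor-level genes of the whole array. Cst7, a cystatin of immune cells, lost its call without 24 h replicate 2 (adjusted p = 0.0739) or control replicate 1 (0.0816), Serpina10 without 24 h replicate 2 or control replicate 1, 2 or 3 (0.0543 to 0.0852) and Serpind1 without 24 h replicate 2 or control replicate 1 or 3 (0.0669 to 0.142). Beyond Timp1, Timp2 and Spint1, the members added at 24 h by the replicate block were Timp4, Serpinb1b, Serpinb9c, Wfdc21 and Wfdc5, and these 5 were at the floor.

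Promoter windows of RefSeq (GRCm38.p6) were found for 41 of the 54 members, giving 45 windows. The 250 bases before the transcription start are shown for called members above the floor that represent a rise at all times, a fall at all times, a later fall and an early fall. They are Serpinh1 (chr7:99353240-99353489, minus strand), Spint2 (chr7:29281978-29282227, minus strand), Timp3 (chr10:86300162-86300411, plus strand) and Serpina5 (chr12:104100863-104101112, plus strand). Each is written 5′ to 3′ in the direction of transcription, and capitals mark a GC box (GGGCGG on either strand) in the first 3 and the letters AGAACA, the reverse complement of TGTTCT, in Serpina5.
Serpinh1: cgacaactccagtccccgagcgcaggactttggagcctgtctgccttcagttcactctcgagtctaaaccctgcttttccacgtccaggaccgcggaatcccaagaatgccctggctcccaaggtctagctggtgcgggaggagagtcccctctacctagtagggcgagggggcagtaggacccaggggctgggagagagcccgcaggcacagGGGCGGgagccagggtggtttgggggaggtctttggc
Spint2: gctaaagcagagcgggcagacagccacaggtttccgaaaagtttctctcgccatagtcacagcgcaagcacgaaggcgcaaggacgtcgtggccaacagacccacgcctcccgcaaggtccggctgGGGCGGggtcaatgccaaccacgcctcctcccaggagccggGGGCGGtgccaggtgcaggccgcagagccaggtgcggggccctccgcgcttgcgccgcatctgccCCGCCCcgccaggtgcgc
Timp3: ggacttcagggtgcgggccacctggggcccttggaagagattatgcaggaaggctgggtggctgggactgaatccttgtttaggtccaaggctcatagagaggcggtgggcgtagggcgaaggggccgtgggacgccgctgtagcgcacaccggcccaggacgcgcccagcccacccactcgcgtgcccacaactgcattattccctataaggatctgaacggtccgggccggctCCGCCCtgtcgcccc
Serpina5: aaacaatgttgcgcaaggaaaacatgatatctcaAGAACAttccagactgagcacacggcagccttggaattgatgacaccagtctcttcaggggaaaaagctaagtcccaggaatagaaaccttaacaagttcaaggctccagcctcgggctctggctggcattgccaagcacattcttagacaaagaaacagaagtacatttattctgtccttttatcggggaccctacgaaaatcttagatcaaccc

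The windows differ in composition, with 63.6%, 69.6%, 65.6% and 44.8% G and C in that order. Spint2 holds 3 GC boxes, at positions -124, -83 and -18 from the start, and Serpinh1 and Timp3 hold 1 each, at -37 and -15, given for the first letter of the match. Serpina5 holds no GC box and 1 copy of TGTTCT, the letters of one arm of an androgen response element, at -216. Searching the 250 bases before the start in each RefSeq window, on both strands, found the GC box in 31.1% of member windows. It was in 32.7% of all 32851 windows, and TGTTCT was in 20.0% and 16.1%. The full cAMP response element TGACGTCA was in 0 of 45 member windows and 1.55% of all, and its part TGACG in 6.67% and 17.8%. The TATA box TATAAA was in 13.3% and 12.4%. A match describes letters in a window and not a bound site.

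Genes listed as other inhibitors, outside the choice by name though not all outside these families, were counted as well. Of 29 such genes listed, 26 were measured and 15 were at the floor. Called were 0 higher and 2 lower at 12 h, 2 higher and 3 lower at 24 h and 2 higher and 3 lower at 72 h. Of all genes 6.28%, 14.8% and 7.26% were called at these times in either direction. Eppin, a testis and epididymis inhibitor with a WAP and a Kunitz domain, rose by 3.16 ± 0.40 at 24 h (adjusted p = 0.000160) and 3.11 ± 0.34 at 72 h (adjusted p = 8.22e-05) and was 4.06 ± 0.34 higher at 72 h than at 12 h. Its controls averaged 4.37 in replicates 1 to 3 and 6.33 in replicates 4 to 7. Itih5, a hyaluronan-binding inter-alpha-trypsin inhibitor chain, fell by 0.99, 2.06 and 1.15 at the 3 times. Crim1 and Sparcl1, on the list but not established protease inhibitors, fell by 1.44 and 1.23 at 24 h.

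Counts of proteases are set beside the same shares of all genes (6.28%, 14.8% and 7.26%), and no list was tested as a whole. Of 22 measured metalloproteinase and ADAM genes, which Timp proteins inhibit, 1, 1 and 3 were called higher and 1, 3 and 2 lower at 12 h, 24 h and 72 h. Adamts5, an aggrecanase, rose by 0.86, 0.68 and 1.29, while Mmp2 fell by 1.20 and 1.41 at 12 h and 24 h, Mmp11 by 1.58 and 1.01 at 24 h and 72 h and Mmp23 by 1.34 at 72 h. Of 14 cathepsin, legumain and calpain genes, most of them cysteine proteases, 0, 0 and 1 were called higher and 1, 1 and 0 lower. The list, meant for targets of cystatins, also held Ctsa and Ctsd, which are not cysteine proteases. Ctsl, cathepsin L, a major secreted protease of Sertoli cells, fell by 0.33 ± 0.08 at 12 h (adjusted p = 0.0228) and rose by 0.64 ± 0.08 at 72 h (adjusted p = 0.000220), and was 0.97 ± 0.08 higher at 72 h than at 12 h. Ctsa, a serine carboxypeptidase and not a target of cystatins, fell by 0.77 at 24 h.

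Of 17 plasminogen and coagulation genes, 2 were called higher at each time and 0, 2 and 1 lower. The shares of all genes called in either direction were 6.28%, 14.8% and 7.26%. S100a10 and Anxa2, which together bind plasminogen at the cell surface, rose by 1.14, 0.65 and 0.78 and by 0.46, 0.57 and 0.45. Thbd, thrombomodulin, fell by 3.23 ± 0.56 at 24 h, and F3, tissue factor, fell by 1.10 and 1.33 at 24 h and 72 h. Of 28 other serine protease genes, 1, 0 and 3 were called higher and 0, 3 and 0 lower. Klk1 rose by 1.64 and 2.09 at 12 h and 72 h, Klk1b21 by 1.42 and Klk1b24 by 3.07 at 72 h, and these kallikreins are close paralogs whose probes may share signal. Prss35 fell by 1.30 at 24 h.

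Markers of some cell types were also called, and their part in the members' changes was not tested. Beside the marker counts here and below, 6.28%, 14.8% and 7.26% of all genes were called at the 3 times in either direction. The testis label matched the arrays, since none of 14 Sertoli cell markers and 1 of 13 germ cell markers lay at the floor, against 9 of 10 epididymal and 6 of 6 liver plasma genes. Among the germ cell markers Prm1, Tnp1 and Acrv1 exceeded 4.49 on control replicate 6 alone. Sertoli cell markers called higher numbered 5, 2 and 4 and lower 1, 1 and 1 at 12 h, 24 h and 72 h. Inha rose by 1.87, 1.75 and 1.94, while the median log2 difference of the whole list was 0.21, -0.08 and 0.11. Of 13 germ cell markers 0 were called higher and 2, 4 and 2 lower at the 3 times, with a mean over the list of 7.22 to 8.89 in controls 4 to 7, the highest being replicate 6, 6.83 to 7.21 at 12 h and 6.87 to 7.11 at 72 h, and of 7.32 to 7.47 in controls 1 to 3 and 6.74 to 7.09 at 24 h. Peritubular myoid markers (9 measured) were called higher in 2, 1 and 1 cases and never lower, with list means of 7.26 to 7.74 in controls 4 to 7, 7.84 to 8.36 at 12 h and 7.63 to 7.96 at 72 h.

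Leydig cell markers (10 measured) were called higher in 2, 3 and 0 cases and lower in 1 case at each time. The steroidogenic gene Star rose by 2.53 and 2.50 at 12 h and 24 h, and Cyp17a1 by 2.86 and 4.62. The median log2 difference of the whole list was smaller, at 0.13, -0.10 and 0.25 at the 3 times. List means were 6.92 to 7.53 in controls 4 to 7, 7.69 to 7.84 at 12 h and 7.12 to 7.44 at 72 h. In the other array set they were 6.75 to 7.08 in controls 1 to 3 and 7.53 to 7.81 at 24 h. Macrophage markers (13 measured) were called higher in 0, 1 and 2 cases and lower in 1, 1 and 0. Their list means were 5.47 to 5.73 in controls 4 to 7, 5.18 to 5.36 at 12 h and 5.70 to 5.99 at 72 h. In the other array set these means were 5.06 to 5.24 in controls 1 to 3 and 5.08 to 5.34 at 24 h. Without control replicate 6, the array with spermatid transcripts, the calls of Wfdc1, Serpinh1, Spint2, Cst12, Serpinb6a and Timp3 at 12 h or 72 h held and those of Serpina5 at 12 h (adjusted p = 0.115) and Serpinb1a at 72 h (0.0666) did not.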

How the data were processed

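RNA of 18 testes was hybridised to 1-colour Affymetrix MOE430A arrays. The authors deposited 1 table of log2 values per probe set; RMA and GCRMA are named, per the submitters' processing notes, but which made the values, their versions and the probe set definitions are not known from the sources used here. The log2 scale was read from the range of the values. Of 22690 probe sets, 64 control probe sets were left out. Gene names came from the platform annotation. Depth does not apply to arrays; their number limits the precision.

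The deposited values were fitted with limma 3.58.1 (R 4.3.3; lmFit, eBayes, two-sided) as 5 group means over 18 arrays with 13 residual degrees of freedom, and p-values were adjusted by Benjamini-Hochberg over 22626 probe sets, with calls at 0.05 and no filter. Differences between 24 h and other times are differences of differences. The fit was tested on simulated data. Named are members called at any time, a list to report whatever the values, and up to 4 called genes of each other list; genes named from dimmer probe sets, and the GC and TATA boxes, were chosen after values or sequences were seen. The members and lists were chosen with earlier results of these data known.

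Alternatives were all 7 controls as 1 group, each array set alone, a filter at 3.5, quantile normalization, an intensity trend, a replicate block, each array left out, and any probe set of a gene. Same-numbered mice of 24 h and controls 1 to 3 deviated together (correlations of 0.18, 0.34 and 0.41 over probe sets), so a block for these alone was added after seeing the data; the labels do not say that numbers pair mice. For 12 h and 72 h the correlations were 0.11, 0.13, 0.01 and 0.07. Nothing in the labels beyond individual mice describes how arrays were batched.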

Additional observations from a re-analysis of the deposited data

Results flagged for a closer look

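Within 54 groups of 4 arrays examined among the named members, 4 held an array far from the other 3, and chance flags about 1 group in 20. In Cst9 the lowest 72 h array read 8.36 where the nearest read 11.5. For Spint2 the lowest 72 h array read 8.70 and the nearest 9.05, and for Serpinb6a they read 9.45 and 9.76. In Serpinh1 the highest of controls 4 to 7, replicate 5, read 8.45 and the nearest 8.06.

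The response to FSH differed between times for 3 members, on their brightest probe sets, by limma's test of the difference. Cst12 was higher at 72 h than at 12 h by 1.09 ± 0.14 (log2 ± SE, adjusted p = 0.000775). For Serpinb6a the 72 h mice read below the 12 h mice (-0.58 ± 0.12, adjusted p = 0.0188). So did those for Timp3 (-1.20 ± 0.23, adjusted p = 0.0110), and its response at 24 h was lower than that at 12 h (-1.76 ± 0.35, adjusted p = 0.0269).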

How the results depend on the processing

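No called result of a named member changed sign under any alternative. With all 7 controls as 1 group and no array set, 35 members were called at 24 h (23 at the floor), 31 between 24 h and 12 h and 28 between 72 h and 24 h, where 36.5%, 38.8% and 30.7% of all genes were called. With each array set alone 2 members were called at 24 h (2.10% of all genes). The replicate block over all groups, with 7 residual degrees of freedom, called 1 member at 12 h, 8 at 24 h (without Cst12, Spint2, Serpina10 and Serpind1), 1 at 72 h, 1 between 72 h and 12 h and 0 between 24 h and 12 h; numbers are shared by 12 h and 72 h mice, and with controls 4 to 7 only through replicate 4. The block for 24 h and controls 1 to 3 alone called 20 and ended no call there. Quantile normalization called 0 between 24 h and 12 h. Leaving out 1 array gave 4 to 6 calls at 12 h, 6 to 16 at 24 h, 3 to 4 at 72 h, 2 to 4 between 72 h and 12 h, 0 to 2 between 24 h and 12 h and 0 between 72 h and 24 h in each case. The extra array-left-out call between 24 h and 12 h appeared without 24 h replicate 1. The cause of these differences was not tested. The number of arrays and signal near the floor limit the results.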

Other observations

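Cst9 and its chromosome 2 neighbour Cst3 ran opposite to each other between mice of a group. In 5 of 5 groups the array lowest in Cst9 was the highest in Cst3, and in 4 of 5 the array highest in Cst9 was the lowest in Cst3. The 12 h mice show the spread: Cst9 ranged over 6.65 and Cst3 over 0.51, with 3.74 and 11.8 on one array and 10.4 and 11.3 on another. Cst12, from the same cluster, varied by 0.21 to 0.67 within groups. On 10 arrays Cst9 was above 9, on 7 below 7 and on 1 between. In the gene table the protein-coding neighbours of Cst9 are Cst13 and Cstdc2, and those of Cst3 are Cstdc2 and Cst10. The pattern was noticed in these data and was not tested.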
